A study of Homo sapiens with 2 samples.

Results

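The chromatin loops around 4 genes, EPHA2, LIF, NOTCH1 and FOXA1, were examined by H3K27ac HiChIP in HCT116. A loop belonged to a gene when it joined 2 different anchors up to 2 Mb apart and at least 1 of them lay within 50 kb of the transcription start site (TSS). By this rule 1014 of 1973470 loops were members, 291 at EPHA2, 370 at LIF, 157 at NOTCH1 and 196 at FOXA1. The promoter anchor was the anchor that overlapped the TSS ± 2.5 kb, and each of the 4 genes had exactly 1. HCT116, a human colorectal carcinoma line long established in culture, was used without any named treatment. The data comprised 2 replicates of 1 condition, so genes were compared with all other genes and no condition was compared with another. HiChIP joins chromatin fragments that lie close together and then enriches them with an antibody, here to H3K27ac. The counted tags are therefore enriched for contacts with this mark of active enhancers and promoters. A single tag does not show that the mark was present. An anchor is a stretch of several kilobases between which tags were counted, and a contact here is 1 such tag.

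A super enhancer is a cluster of enhancers that lie close together on the genome and carry much H3K27ac, often near genes that matter for the identity of a cell. EPHA2 is a receptor tyrosine kinase that binds ephrin-A ligands on neighbouring cells and is abundant in many carcinomas. LIF is a secreted cytokine of the IL6 family that signals through LIFR, IL6ST and STAT3. NOTCH1 is a receptor whose cleaved intracellular part enters the nucleus and activates target genes with RBPJ, a pathway that maintains the crypts of the intestine. FOXA1 is a pioneer transcription factor that opens chromatin in endoderm-derived epithelia. The paper names all of these genes among those associated with super enhancers, which it identified from H3K27ac ChIP-seq of colorectal cancer samples. No super enhancer calls were used here. The density of contacts is another measure and cannot test those calls. The anchors around EPHA2 and LIF had 16.6 and 16.5 contacts per kb, above the 90th percentile of 11.5 over all 250217 anchors. Those around NOTCH1 and FOXA1 had 6.52 and 4.90 contacts per kb, close to or below the 6.31 of all anchors together.

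The cells were measured in bulk, so fewer cells with a contact and fewer contacts per cell could not be told apart. The libraries held 1885466 and 2131457 tags on the autosomes and chromosome X. Of these, 1187129 and 1369536 were contacts of different anchors up to 2 Mb apart. Of 8 listed epithelial marker genes 7 had a promoter anchor, and CLDN3 was not among them. Contacts per kb at these 7 promoters ranged from 10.7 to 25.3 with a median of 15.9, and all 7 lay above the median promoter of 7.81. Of 11 listed marker genes of blood, endothelial, connective, glial, muscle and liver cells 10 had a promoter anchor, and PECAM1 was not among them. For these 10 the range was 2.36 to 17.9 with a median of 6.76, and 4 lay above 7.81, COL1A1 being the highest. Over promoters with at least 10 contacts, the replicates differed by about the sampling noise (ratio of chi-square to its degrees of freedom 1.01, p = 0.143), and over the 3189 loops with a summed count of at least 10 by little more (1.05, p = 0.0303). The labels do not say whether the replicates came from separate cultures, so the spread between them may be technical. The tags carry no molecular identifiers, and the intervals below therefore cover counting error only.

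All 4 genes lie on the minus strand of hg19. EPHA2 (ENSG00000142627.13_8) occupies chromosome 1, 16450832 to 16482564. Its promoter anchor, 16481026 to 16484060, holds the TSS and exon 1. LIF (ENSG00000128342.5_8) occupies chromosome 22, 30636442 to 30642748. Its promoter anchor, 30640799 to 30642823, holds exons 1 and 2. NOTCH1 (ENSG00000148400.13_11) occupies chromosome 9, 139388885 to 139440500, and its promoter anchor of 8.78 kb, 139438167 to 139446941, also holds exons 1 and 2. FOXA1 (ENSG00000129514.8_9) occupies chromosome 14, 38058757 to 38064454. Its promoter anchor, 38055378 to 38069186, is 13.8 kb wide, spans the whole gene and holds the TSS of the neighbouring gene TTC6. Contacts of FOXA1 and TTC6 could therefore not be told apart.

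The 250 bases upstream of the TSS of EPHA2, NOTCH1 and FOXA1 are shown because they are the part of each promoter anchor from which distances were measured. Sequences were read from GRCh37, which is hg19, and are written 5′ to 3′ on the strand of the gene. Capitals mark the MboI site GATC, at which the chromatin was digested, and the GC box GGGCGG or CCGCCC. The TATA box TATAAA or TTTATA was also searched.
EPHA2 promoter, chr1:16482565-16482814, minus strand: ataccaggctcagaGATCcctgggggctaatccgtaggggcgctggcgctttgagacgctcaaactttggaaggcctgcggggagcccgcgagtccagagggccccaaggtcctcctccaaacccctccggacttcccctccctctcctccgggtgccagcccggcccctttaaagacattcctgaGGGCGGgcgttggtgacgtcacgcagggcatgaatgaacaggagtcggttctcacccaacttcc
NOTCH1 promoter, chr9:139440501-139440750, minus strand: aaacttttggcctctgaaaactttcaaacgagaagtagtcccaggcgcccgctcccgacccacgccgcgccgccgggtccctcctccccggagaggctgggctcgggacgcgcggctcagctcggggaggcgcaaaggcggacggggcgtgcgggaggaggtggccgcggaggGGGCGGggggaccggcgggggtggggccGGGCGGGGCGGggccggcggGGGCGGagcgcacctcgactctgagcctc
FOXA1 promoter, chr14:38064455-38064704, minus strand: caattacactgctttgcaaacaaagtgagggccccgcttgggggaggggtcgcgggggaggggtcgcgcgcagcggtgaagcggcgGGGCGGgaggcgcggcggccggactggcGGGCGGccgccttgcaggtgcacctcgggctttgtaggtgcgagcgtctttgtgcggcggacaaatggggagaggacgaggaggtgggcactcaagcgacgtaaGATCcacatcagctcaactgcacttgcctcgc

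The GC content of these promoters was at or above that of the median promoter. The GC content was 63.2% at EPHA2, 76.0% at NOTCH1 and 67.2% at FOXA1, compared with a median of 63.2% over 19811 protein-coding promoters. EPHA2 held 1 GC box, FOXA1 2 and NOTCH1 4, and those of NOTCH1 partly overlap. A GC box was found in 59.2% of all promoters on either strand. None of the 3 held the letters of a TATA box, which 9.28% of all promoters held. NOTCH1 was the only one of the 3 without GATC, found in 34.1% of promoters of this length. A match is a description of letters and not a bound site.

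The anchors around EPHA2 and LIF were the densest, on different sides of the genes. Around EPHA2, 9 of 11 anchors lay above the 90th percentile of all anchors, and the densest lay upstream, between the gene and its neighbour ARHGEF19. The anchor 18.4 kb upstream (chromosome 1, 16498308 to 16503601) had 70 contacts in replicate 1 and 71 in replicate 2, or 26.6 contacts per kb (22.4 to 31.4, exact Poisson 95% interval). It was the only anchor of the window denser than the promoter anchor of EPHA2. The anchors 10.2 and 24.9 kb upstream followed with 20.8 (17.5 to 24.6) and 22.6 (19.0 to 26.8) contacts per kb, so these intervals overlapped that of the promoter. None of these 3 anchors overlapped a protein-coding gene.

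Around LIF, 10 of 14 anchors lay above the 90th percentile, and the densest lay downstream of the gene. The anchor 35.6 kb downstream (chromosome 22, 30604711 to 30609611) had 75 and 84 contacts, or 32.4 per kb (27.6 to 37.9). The anchor 21.5 kb downstream (30619214 to 30623260) had 45 and 81, or 31.1 per kb (25.9 to 37.1). Both stood above the promoter anchor of LIF, which had 13.3 per kb (8.79 to 19.4), and the intervals did not overlap. In all, 9 of the 13 other anchors around LIF were denser than its promoter. Upstream of LIF, 2 anchors lay in OSM, a cytokine of the same family. The one 16.6 kb upstream had 12 and 22 contacts or 15.2 per kb (10.5 to 21.2), and the one 20.8 kb upstream had 9 and 11 or 7.69 per kb (4.70 to 11.9).

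At NOTCH1 no anchor of 10 lay above the 90th percentile. The densest, 16.0 kb upstream, had 13 and 23 contacts or 9.33 per kb (6.53 to 12.9), next to 9.23 (7.33 to 11.5) at the promoter. At FOXA1 only 1 of 12 anchors lay above the 90th percentile, an anchor inside MIPOL1 at 48.3 kb downstream with 9 and 14 contacts or 13.1 per kb (8.31 to 19.7). The sparsest of all 47 anchors lay in TTC6, 14.0 kb upstream of FOXA1, with 3 and 6 contacts or 1.66 per kb (0.759 to 3.15). Thus the windows of EPHA2 and LIF ranked at the 98.9th percentile of the windows of all protein-coding genes, NOTCH1 at the 42.9th and FOXA1 at the 14.96th.

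**Figure D1:**
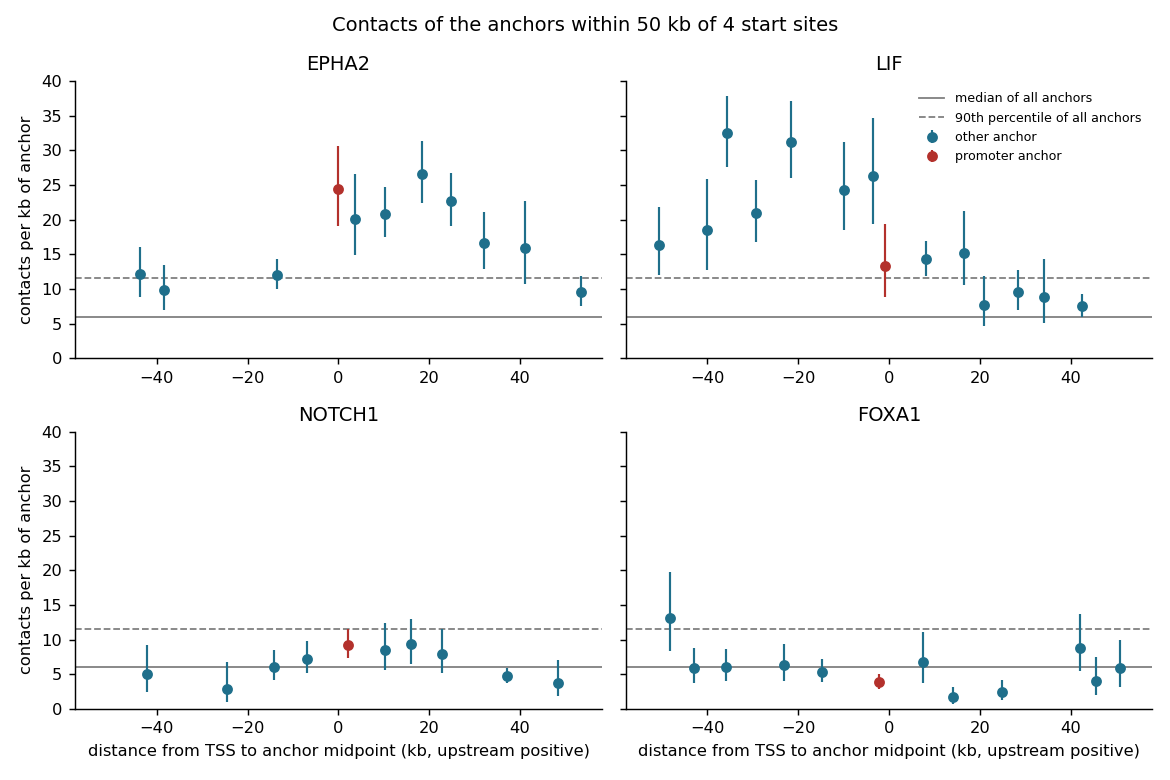
Summed contacts per kb of each anchor within 50 kb of the 4 start sites (y axis) against the distance of its midpoint from the TSS in kb, upstream positive (x axis). Bars are exact Poisson 95% intervals, the promoter anchor is red, and lines mark the median (5.97) and the 90th percentile (11.5) of all anchors. EPHA2 peaks at and upstream of the promoter and LIF downstream of it, while no anchor of NOTCH1 and 1 of FOXA1 lies above the 90th percentile.

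The windows of EPHA2 and LIF were also denser than their surroundings. Anchors within 2.5 Mb on either side but outside the window had 7.22 contacts per kb at EPHA2 and 7.11 at LIF, so both windows were denser by 2.29 and 2.32 times. At NOTCH1 and FOXA1 the windows had 1.04 and 0.894 times the contacts per kb of 6.26 and 5.48 in their surroundings. Tags that joined an anchor with itself, counted apart from all loops, numbered 3.53 per kb at EPHA2, 2.15 at LIF, 1.44 at NOTCH1 and 0.270 at FOXA1, compared with 0.746 over all anchors. These tags come from the same enriched chromatin as the contacts and are not independent of them.

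Summed over their windows, the anchors around EPHA2 and LIF also held more letters of the AP-1 motif, the site of FOS and JUN proteins. The motif TGACTCA was searched on both strands, so that TGAGTCA also counts. Anchors around EPHA2 held 17 matches or 0.306 per kb and those around LIF 16 or 0.289 per kb, compared with 0.178 per kb over all anchors. The values were 0.252 at FOXA1 and 0.169 at NOTCH1, so FOXA1, which had the fewest contacts per kb, was not the lowest. Matches were found in 9 of 11 anchors around EPHA2 and 9 of 14 around LIF, but not in every dense one. The anchors 3.44 and 10.0 kb downstream of LIF (26.3 and 24.3 contacts per kb) held 0. So did the anchor 3.73 kb upstream of EPHA2 (20.1). The LIF anchor 34.2 kb upstream, with 8.82 contacts per kb, held 1.10 matches per kb. The forkhead letters TGTTTAC or GTAAACA were found at 0.0360 per kb at EPHA2, 0.0542 at LIF, 0.0187 at NOTCH1 and 0.144 at FOXA1, compared with 0.162 over all anchors. The anchors differ in base composition, with a median GC content of 56.1%, 52.4%, 60.6% and 37.4% around EPHA2, LIF, NOTCH1 and FOXA1 and 40.9% over all anchors, and no test was made. MboI sites were found at 2.46, 2.04, 1.65 and 1.75 per kb in the same order, compared with 2.27 over all anchors. The first match in each of the 2 EPHA2 anchors that formed the strongest loop and in the 2 densest LIF anchors is shown with its flanks, with the motif in capitals.
EPHA2 anchor 10.2 kb upstream, chr1:16490750-16490876, plus strand: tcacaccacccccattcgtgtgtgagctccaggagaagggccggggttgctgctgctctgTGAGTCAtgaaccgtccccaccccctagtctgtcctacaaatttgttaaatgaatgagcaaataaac
EPHA2 anchor 18.4 kb upstream, chr1:16499771-16499897, plus strand: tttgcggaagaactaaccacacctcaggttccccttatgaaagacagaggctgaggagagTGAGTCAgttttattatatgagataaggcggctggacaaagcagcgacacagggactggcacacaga
LIF anchor 35.6 kb downstream, chr22:30604946-30605072, plus strand: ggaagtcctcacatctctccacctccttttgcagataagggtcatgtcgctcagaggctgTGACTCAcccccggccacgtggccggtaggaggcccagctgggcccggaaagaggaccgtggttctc
LIF anchor 21.5 kb downstream, chr22:30620115-30620241, plus strand: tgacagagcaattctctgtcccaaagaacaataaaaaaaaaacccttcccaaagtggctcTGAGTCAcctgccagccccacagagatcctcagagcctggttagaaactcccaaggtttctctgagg

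A loop was called when its summed count exceeded the count expected from the distance and the depth of its anchors (exact one-sided Poisson test, Benjamini-Hochberg adjusted p under 0.01 over 51094598 anchor pairs). At the 4 loci 1 loop of 1014 was called. Over all loops 35 were called, or 0.00177%. The called loop lay at EPHA2 and joined the 2 anchors 10.2 and 18.4 kb upstream, with midpoints 8.19 kb apart. These are neighbouring anchors, 6.57 and 5.29 kb wide, the first ending at 16496051 and the second starting at 16498308. A stretch of each is shown above. Replicate 1 gave 23 counts and replicate 2 gave 19, against 12.3 expected, a ratio of 3.42 (2.46 to 4.62), with an adjusted p of 9.65e-05 by the Poisson test. In each replicate alone the ratio was 4.09 (2.59 to 6.14) and 2.85 (1.72 to 4.45), and neither passed the exact Poisson test after adjustment (adjusted p = 0.0874 and 1). The depth of both anchors was computed without the loop's own count. The anchor weights were only scaled down for this and not balanced anew. The expected count therefore leans low for a loop that makes up much of the depth of its anchors, as here. When the own count was kept, 25.2 were expected, the ratio was 1.67 (1.20 to 2.25) and the loop was not called. The call thus depended on the form of the expectation. Hence the strongest loop of the EPHA2 locus joined upstream anchors with each other rather than with the promoter.

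Against distance alone, 15 loops were called at EPHA2, 9 at LIF, 2 at NOTCH1 and 0 at FOXA1, together 2.56% of the members, where 0.27% of all loops were called by this Poisson test. By the Poisson test with depth, 52 of 291 loops of EPHA2, 74 of 370 of LIF, 46 of 157 of NOTCH1 and 74 of 196 of FOXA1 had an unadjusted p under 0.05, or 17.9%, 20%, 29.3% and 37.8%, compared with 36.3% of all loops. Only pairs with at least 1 count enter these shares, and a single count passes where the expected count is low. The shares therefore do not measure an excess over expectation, and 167 of the FOXA1 loops had a count of 1. The highest count of a FOXA1 loop was 4. Loops with a summed count of at least 5 numbered 25 at EPHA2 (8.59%), 20 at LIF (5.41%), 10 at NOTCH1 (6.37%) and 0 at FOXA1, compared with 1.47% of all loops. Loops found in both replicates made up 24.1% of the members at EPHA2, 18.1% at LIF, 17.2% at NOTCH1 and 10.2% at FOXA1, and 10.2% of all loops.

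Of the 25 stronger loops of EPHA2, 5 involved the promoter anchor. The second strongest had a count of 14 and 9 between the anchors 18.4 and 24.9 kb upstream, against 21.3 expected (ratio 1.08, 0.683 to 1.62). An anchor inside the EPHA2 gene, 13.6 kb downstream of the TSS, took part in 8 of the 25. It lies at or next to the TSS of another EPHA2 transcript, so the number of promoter loops depended on the promoter chosen. With the anchor 24.9 kb upstream it had a count of 4 and 11, 2.91 times the expected count (1.63 to 4.80). This loop spans the promoter anchor defined here without using it, but has 1 end at the anchor of the other transcript.

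At LIF the strongest loops joined the downstream anchors with each other. The anchors 29.2 and 21.5 kb downstream had a count of 10 and 12 against 9.65 expected (ratio 2.28, 1.43 to 3.45). The anchors 35.6 and 21.5 kb downstream had 5 and 13, close to the 14.9 expected. Of the 20 stronger loops of LIF only 1 involved the promoter anchor, with a count of 1 and 4 to the anchor 8.22 kb upstream. This depended on the promoter chosen, since the anchor 3.44 kb downstream, next to the TSS of another LIF transcript, took part in 4 of the 20. At NOTCH1 4 of 10 involved the promoter anchor. An anchor of 16.8 kb lying 37.1 kb upstream (chromosome 9, 139469176 to 139485935), with no protein-coding gene, took part in 6 of the 10.

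**Figure D2:**
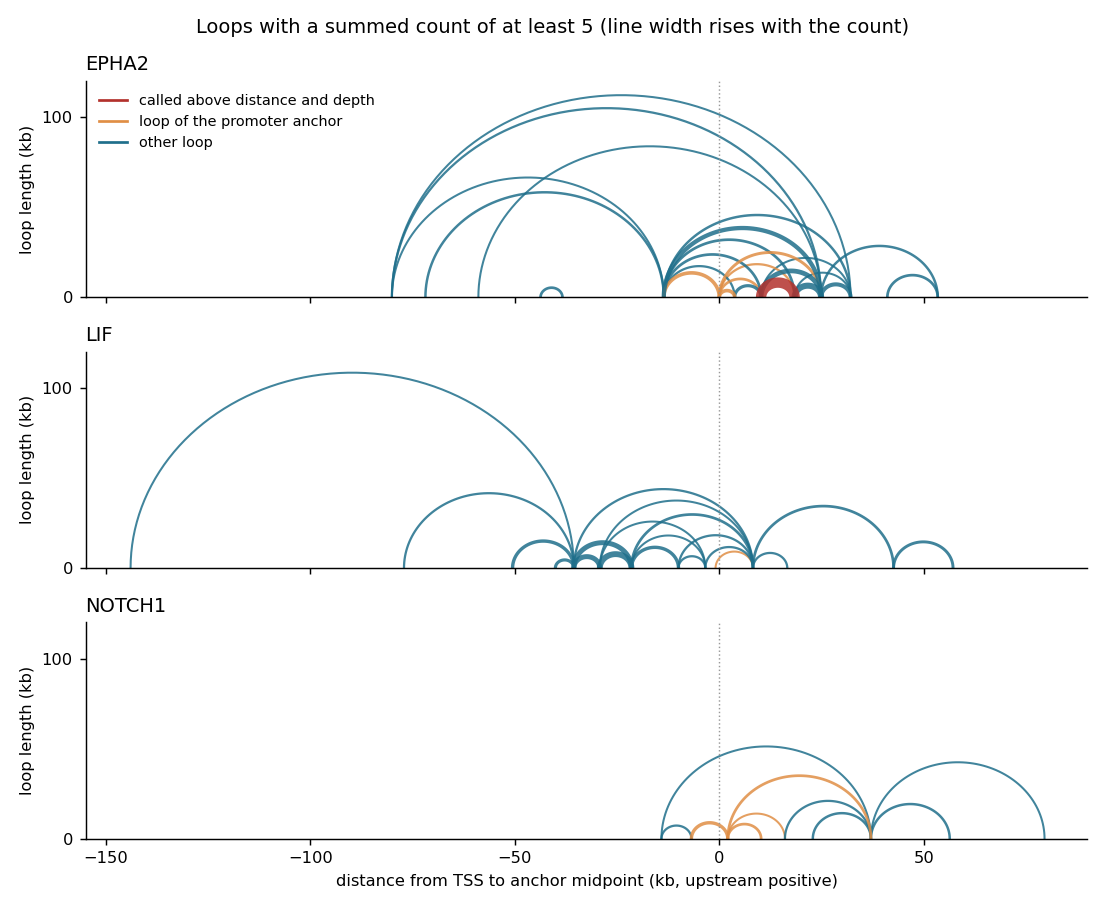
Loops with a summed count of at least 5 at EPHA2, LIF and NOTCH1, drawn as arcs between anchor midpoints, with distance from the TSS in kb (x axis, upstream positive) and loop length in kb (y axis). Line width rises with the count, the red arc is the called loop of EPHA2 with 42 counts, and orange arcs involve the promoter anchor. LIF has 1 orange arc, EPHA2 5 and NOTCH1 4, and FOXA1, with no such loop, is not drawn.

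The promoter anchors differed in contacts over a wide range. EPHA2 had 27 contacts in replicate 1 and 47 in replicate 2, LIF 11 and 16, NOTCH1 31 and 50, and FOXA1 25 and 28. The median promoter of the genome had 14 and 17. The mean per replicate of LIF was 13.5, but 36 with the anchors at the TSS of any transcript and 87 with those at TSS ± 5 kb, and that of EPHA2 was 37, and 84 with the TSS of any transcript. Per kb of anchor the summed contacts of EPHA2 were 24.4 (19.1 to 30.6), at the 98.7th percentile of 16465 promoters. LIF had 13.3 at the 83.3rd percentile, NOTCH1 9.23 (7.33 to 11.5) at the 61.4th and FOXA1 3.84 (2.88 to 5.02) at the 12.3rd. In this order the intervals of LIF overlapped those of EPHA2 and NOTCH1, and FOXA1 lay below all 3. By total contacts the percentiles were 92.9 at EPHA2, 42.1 at LIF, 94.8 at NOTCH1 and 81.3 at FOXA1. The ranks of LIF and FOXA1 therefore depended on whether contacts were divided by anchor width. EPHA2 took 63.5% of its contacts from replicate 2, NOTCH1 61.7%, LIF 59.3% and FOXA1 52.8%, compared with 53.6% of all contacts. None of the 4 differed from the library share by the exact binomial test (unadjusted p = 0.108 at EPHA2, 0.172 at NOTCH1, 0.693 at LIF and 1 at FOXA1). Among all 15350 promoters tested, 0% passed the adjusted p under 0.05, while 505 had an unadjusted p under 0.05 by the exact binomial test.

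The share of the contacts within the locus that involved the promoter anchor also differed. NOTCH1 had 13 and 29 such contacts, 47.7% of the 88 within its window, where an even spread over anchors would give 20%. LIF had 8 and 12, 7.78% of 257, where an even spread would give 14.3%. EPHA2 with 23 and 33 contacts (19.1%) and FOXA1 with 6 and 4 (25.6%) were closer to the even shares of 18.2% and 16.7%. Anchor widths differ, and no test was made of these shares.

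The promoter of EPHA2 had 22 partners, of which 9 were found in both replicates. For single partners of all 4 genes, the ratios leave the pair's own count out of the depth and so lean high. The nearest anchor, 3.73 kb upstream, and the anchor 13.6 kb downstream inside the gene each had a count of 12, with 4 and 8 for the first (ratio 2.34, 1.21 to 4.08) and 5 and 7 for the second (ratio 1.61, 0.830 to 2.81). Beyond 20 kb the anchor 24.9 kb upstream led with 3 and 6 (ratio 2.63, 1.20 to 5.00). With the own counts kept in the depth, these ratios were 1.49, 1.21 and 2.16 in the order given. The anchors 32.1 and 41.1 kb upstream followed with 2 and 2 (ratio 2.49) and with 2 and 1 (ratio 5.99, 1.23 to 17.5), the latter inside ARHGEF19. The only protein-coding TSS in a partner with a count of at least 3 was that of FAM131C, 80.1 kb downstream, with 2 and 1 (ratio 2.91, 0.601 to 8.51). At a count of 2, the anchors 571 kb upstream (0 and 2), 121 kb upstream (1 and 1) and 358 kb downstream (0 and 2) were tied. The partners of the called loop, 10.2 and 18.4 kb upstream, had 2 and 6 and 4 and 2 contacts with the promoter, 0.883 (0.381 to 1.74) and 1.13 (0.416 to 2.47) times the expected counts. Neither was called with the promoter. Against distance and depth, their loop with each other was called only with the replicates summed and its own count left out.

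The promoter of LIF had 15 partners, of which 4 were found in both replicates and 10 rested on a single contact. The highest count, 1 and 4, was that of the anchor 8.22 kb upstream (ratio 1.40, 0.455 to 3.27). Beyond 20 kb, 2 partners shared the highest count with 2 contacts in each replicate. The first, 42.6 kb upstream, holds the TSS of CASTOR1, an arginine sensor of the mTORC1 pathway, and exceeded the expected count 6.89-fold (1.88 to 17.6). The second was the densest anchor of the locus, 35.6 kb downstream, with a ratio of 3.43 (0.936 to 8.79). The anchor 21.5 kb downstream had 0 and 2 (ratio 1.15). The other partners beyond 20 kb had 1 contact each, were tied and carry little weight. The promoter of LIF thus had few counted contacts with the dense anchors next to it, and none of its loops was called. Its anchor held 1 MboI site, or 0.494 per kb, compared with 2.27 per kb over all anchors. Whether this lowered its counts was not tested.

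The promoter of NOTCH1 had 41 partners, of which 8 were found in both replicates. The leading one, 6.84 kb downstream in the gene itself, had 5 and 6 (ratio 2.18, 1.09 to 3.90). Upstream, the anchor at 10.2 kb had 1 and 7 (ratio 2.36, 1.02 to 4.65), and the wide anchor at 37.1 kb had 3 and 5 (ratio 2.05, 0.884 to 4.03). With the own counts kept in the depth, these ratios were 1.37, 1.46 and 1.66 in the order given. The only protein-coding TSS in a partner with a count of at least 3 was that of SEC16A, which acts at the exit sites of the endoplasmic reticulum, 62.0 kb downstream, with 1 and 2 (ratio 1.61, 0.332 to 4.71). A count of 2 was shared by 7 partners, of which those 48.4 kb upstream (0 and 2), 89.6 kb upstream (1 and 1) and 42.2 kb downstream (2 and 0) had the highest ratios. The intervals of these 3 included 1.

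The promoter of FOXA1 had 44 partners, more than the other 3 genes, but 37 of them rested on a single contact and 6 were found in both replicates. The highest count was 3, at the anchors 7.39 kb upstream in TTC6 (1 and 2, ratio 1.36, 0.280 to 3.96) and 14.8 kb downstream (3 and 0, ratio 0.587, 0.121 to 1.72). Beyond 20 kb, 5 partners had 1 contact in each replicate. They lay in SLC25A21 639 kb downstream, in MIPOL1 337 and 94.3 kb downstream, and in TTC6 72.1 and 42.1 kb upstream. Their ratios ran from 2.56 (0.310 to 9.26) to 10.4 (1.26 to 37.7), on counts too low to rank them. No partner anchor of FOXA1 with a count of at least 3 held a protein-coding TSS.

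**Figure D3:**
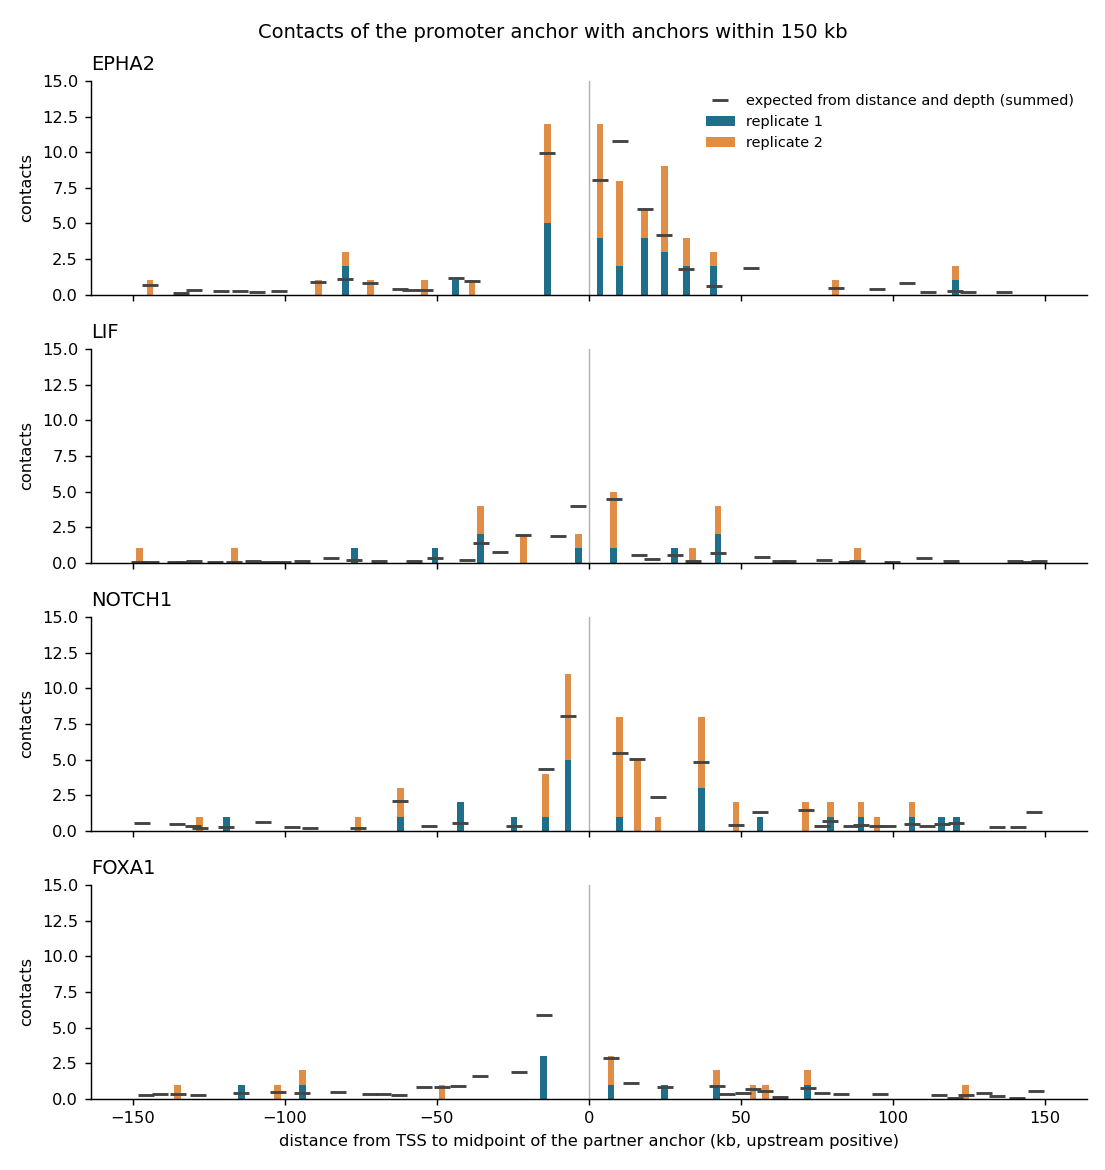
Contacts of the promoter anchor with each anchor within 150 kb (y axis, replicates stacked) against the distance from the TSS to the partner's midpoint in kb, upstream positive (x axis). Short lines mark the summed count expected from distance and depth with the pair's own count kept. EPHA2 and NOTCH1 reach 12 and 11 contacts close to the gene, while no partner of LIF exceeds 5 and none of FOXA1 exceeds 3.

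A promoter loop of 20 kb or more with a summed count of at least 5 was found at EPHA2 (24.9 kb upstream) and at NOTCH1 (37.1 kb upstream), and not at LIF or FOXA1. Of all promoters 11.8% had such a loop. At LIF and FOXA1 the highest counts beyond 20 kb were 4 and 2.

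The reach of the contacts differed among the 4 promoters. Of the contacts of EPHA2, 51.4% lay under 20 kb and 33.8% between 20 and 100 kb. For NOTCH1 the shares were 34.6% and 32.1%. LIF had 25.9% under 20 kb and 55.6% between 20 and 100 kb. FOXA1 had 11.3% and 18.9%, while 41.5% of its contacts lay between 100 and 500 kb and 28.3% beyond. The median promoter had 21.1% under 20 kb and 26.1% between 20 and 100 kb.

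Against the expected counts, contacts between 20 and 100 kb were 1.63-fold at EPHA2 (1.05 to 2.41), 1.86-fold at LIF (1.04 to 3.07) and 1.56-fold at NOTCH1 (1.02 to 2.29), with all intervals above 1, and 0.743-fold at FOXA1 (0.356 to 1.37). None passed the exact Poisson test after adjustment (adjusted p = 0.735, 0.779, 0.799 and 1), and 0.0425% of promoters did in this class. In all distance classes the expected counts keep each pair's own count in the depth, unlike the ratios of single partners above. Under 20 kb the ratios were 1.09, 0.639, 1.22 and 0.605 for EPHA2, LIF, NOTCH1 and FOXA1, and 0.0197% of promoters passed. Between 100 and 500 kb they were 0.498, 0.812, 0.741 and 1.25, and 0.0756% passed. In both of these classes the direction at NOTCH1 depended on 1 replicate, with ratios of 1.55 and 0.520 without replicate 1 and 0.748 and 1.12 without replicate 2. Beyond 500 kb they were 0.407, 0.326, 0.526 and 1.25, and 0.45% passed. LIF was not tested beyond 100 kb because its expected counts were under 5. None of the 4 genes was called in any class by the exact Poisson test. With an unadjusted p under 0.05 by this test, EPHA2 (0.0286), LIF (0.0368) and NOTCH1 (0.0406) appeared between 20 and 100 kb, and NOTCH1 (0.0489) beyond 500 kb.

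**Figure D4:**
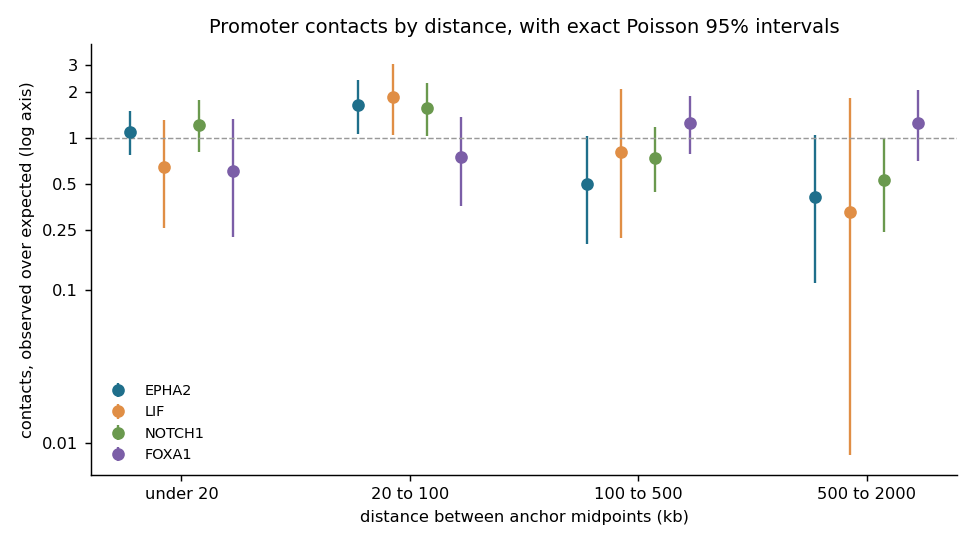
Observed over expected promoter contacts on a log axis (y axis) in 4 distance classes in kb (x axis), with exact Poisson 95% intervals, for EPHA2, LIF, NOTCH1 and FOXA1. Between 20 and 100 kb EPHA2, LIF and NOTCH1 lie at 1.56 to 1.86 and FOXA1 at 0.743. The dashed line is a ratio of 1.

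The side of the contacts was close to the one expected from the anchors available. EPHA2 had 51 of 74 contacts upstream, 68.9% (57.1 to 79.2, exact binomial 95% interval), where 62.1% were expected. LIF had 48.1% (28.7 to 68.1) against 42.5%, NOTCH1 55.6% (44.1 to 66.6) against 56.5%, and FOXA1 43.4% (29.8 to 57.7) against 42.9%. None of the 4 was called by the exact binomial test (adjusted p = 0.833 at EPHA2 and 1 at the others), while 1.64% of promoters were.

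Contacts between anchors that both lay within 50 kb of the TSS were then summed for each gene. EPHA2 had 136 in replicate 1 and 157 in replicate 2, LIF 110 and 147, NOTCH1 39 and 49, and FOXA1 19 and 20. The median gene had a sum of 47. The summed counts of 293 and 257 placed EPHA2 at the 99.97th and LIF at the 99.9th percentile of all genes, while NOTCH1 with 88 lay at the 87.6th and FOXA1 with 39 at the 37.8th. The counts expected from distance and depth were also high at the first 2, with 256, 240, 65.2 and 46.7 in the same order. The ratio was therefore 1.15 at EPHA2 (1.02 to 1.29), 1.07 at LIF (0.943 to 1.21), 1.35 at NOTCH1 (1.08 to 1.66) and 0.836 at FOXA1 (0.594 to 1.14), compared with a median of 1.05. None of the 4 was called by the exact Poisson test (adjusted p = 0.388, 0.820, 0.273 and 0.817). EPHA2 and NOTCH1 had an unadjusted p of 0.0235 and 0.00829 by this test. Of all genes 0.161% were called higher and 0.304% lower.

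The depth of an anchor includes its contacts within the locus, so a dense locus raises its own expectation. When depth was taken from contacts with anchors outside the locus, a form added after the data had been seen, the ratios were 1.79 at EPHA2 (1.59 to 2.01), 1.29 at LIF (1.14 to 1.46), 2.08 at NOTCH1 (1.67 to 2.56) and 0.707 at FOXA1 (0.502 to 0.966). They ranked at the 91.4th, 66.2nd, 96.6th and 12.2nd percentile of all genes, with a median ratio of 1.11. Thus NOTCH1, with counts far below those of LIF, ranked above it once the depth of the anchors was considered, and FOXA1 was lowest of the 4 on both scales.

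**Figure D5:**
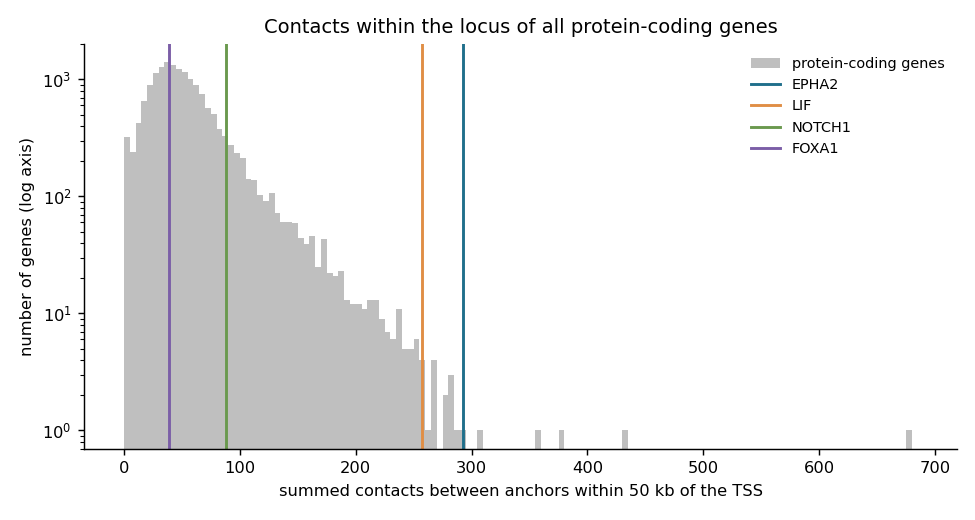
Number of protein-coding genes (y axis, log) by the summed contacts between anchors within 50 kb of the TSS (x axis). Coloured lines mark EPHA2 (293), LIF (257), NOTCH1 (88) and FOXA1 (39), and EPHA2 and LIF stand in the upper tail.

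Genes of the same families and pathways were listed to place the 4 genes, and none of the genes in these lists was called for contacts within the locus. Of 14 Eph receptors 9 had a promoter anchor, and EPHA2 was the only one with a strong distal promoter loop, defined as above. Such a loop was found at 11.8% of all promoters, and no set test was made for any list. Among the Eph receptors EPHA2 had the highest contacts per kb (24.4), the next being EPHB3 with 11.1. By locus ratio EPHA8 (1.25) came before EPHA2, followed by EPHB4 (1.09) and EPHB3 (1.02). Of 8 ephrin ligands 6 had a promoter anchor, with ratios up to 1.31 for EFNA1, and 1 of them, EFNA4, had a strong distal loop.

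Of 7 ligands of the IL6 family all had a promoter anchor, and LIF had the highest contacts per kb (13.3), followed by OSM with 10.7. In total contacts LIF had 27, more only than CTF1 (25), while CLCF1 had the most (113). The windows of LIF and OSM overlap, and OSM accordingly had 81 and 112 contacts within its locus. Strong distal loops were found at IL11 (3) and CLCF1 (1), so LIF, the gene of the family with the most contacts within its locus, was not among them. Of 11 receptor and signalling genes of the IL6 family, not all of them used by LIF, 1, the receptor subunit CNTFR, had such a loop. It was also the only listed gene called by side, with 18.4% of its contacts upstream (exact binomial test, adjusted p = 0.0226). Of all promoters tested, 1.64% were called by side. SOCS3, the feedback inhibitor induced by STAT3, had 22.6 contacts per kb and a locus ratio of 1.22, and STAT3 15.1 and 1.24.

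Of 4 Notch receptors 2 had a promoter anchor, NOTCH1 with 9.23 and NOTCH2 with 1.90 contacts per kb. NOTCH2 had 6 and 11 contacts and no strong distal loop. Of 5 Notch ligands none had such a loop, and DLL3 had the highest locus ratio with 1.43. Of 11 nuclear effectors and targets 3 had one, MAML2, MAML3 and HES4, and the canonical target HES1 had 5 and 10 contacts. Of the 3 FOXA factors none had a strong distal loop. FOXA1 with 3.84 contacts per kb lay below FOXA2 (8.75) and FOXA3 (8.67), and its locus ratio of 0.836 was below theirs (1.08 and 1.58). Its 53 contacts in total, on an anchor of 13.8 kb, exceeded the 31 of FOXA2 and the 34 of FOXA3. For comparison, 5 of 7 epithelial marker promoters and 0 of 10 of other cell types had a strong distal loop.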

How the data were processed

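H3K27ac HiChIP of HCT116 was analysed in 2 replicates. Per the processing notes and methods, the authors obtained valid pairs with HiC-Pro on hg19 and loops with hichipper, with versions and anchor settings not given in the sources used here. They deposited raw counts of tags per anchor pair of 1 chromosome, without normalization. Because anchors were shared by both tables, their width limits the resolution.

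Gene positions came from GENCODE release 44 lifted to GRCh37 (canonical transcripts), and 16465 of 19812 protein-coding genes had a promoter anchor. Anchors had to overlap a promoter or window by 1 bp. The expected count of an anchor pair came from 60 distance classes and anchor weights balanced in 20 rounds per replicate, with an offset of 0.5 where the pair's own count was left out. Single loops were tested by exact one-sided Poisson tests (adjusted p under 0.01). Genes were tested by two-sided exact Poisson and binomial tests at an expected count of at least 5 or at least 10 contacts (adjusted p under 0.05), with Benjamini-Hochberg adjustment over all genes. Partners were named by being called, by the 5 highest counts at 20 kb or more, by the highest count under 20 kb, or by a protein-coding TSS in a partner with a count of at least 3, with ties in count broken by the ratio to the expected count. From each gene list up to 4 genes were named by locus ratio, and others (EPHA2 family levels, loops of 20 kb or more, SOCS3, HES1) after their values were seen. The members, lists and motifs were chosen with earlier results of these data known. The sequence of 1 promoter is not reported here.

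Alternatives were promoter and window width, distance range, minimum count, expectation, threshold, TSS and each replicate left out. The software was scipy 1.17.1, numba 0.67.0, numpy 2.4.6, matplotlib 3.10.9 and pandas 2.3.3 under Python 3.11.15.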

Additional observations from a re-analysis of the deposited data

Results flagged for a closer look

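Contacts of the promoter anchors over distances of more than 2 Mb on the same chromosome were outside all comparisons above and exceeded the 3 counts that a count of 0 allows at 3 genes. EPHA2 had 22 such contacts (10 in replicate 1 and 12 in replicate 2), NOTCH1 11 (9 and 2) and FOXA1 8 (3 and 5), while LIF had 1. No pair of anchors had more than 1 contact, and none was found in both replicates. They made up 22.9% of the contacts of EPHA2, 11.96% of NOTCH1 and 13.1% of FOXA1, compared with a median of 24.3% over all promoters.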

How the results depend on the processing

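Of 165 values computed under alternatives, 107 kept their direction and their side of the threshold (counts: within 1.5 times), and 8 turned direction, none of them past a threshold. With 1 replicate left out these were the NOTCH1 ratios under 20 kb (0.748 to 1.55) and at 100 to 500 kb (0.520 to 1.12) and the percent upstream of NOTCH1 (45.2 to 62) and FOXA1 (40 to 46.4). The others were the percent upstream with TSS ± 5 kb (39.1 at LIF, 61 at NOTCH1) and at 20 kb or more (42.6 at FOXA1), and the FOXA1 locus ratio with distance alone (1.03). Percent upstream was read against its expected share. With either replicate left out, the called EPHA2 loop was lost (0 to 0 loops at the 4 loci, 5 to 14 of all loops), genes called within the locus fell to 0 to 0 higher and 7 to 9 lower, genes by side to 15 to 43, and genes in the 4 distance classes to 0 to 0, 0 to 0, 0 to 1 and 1 to 7. These fits rest on fewer counts. With the loop's own count kept, 0 loops were called at the 4 loci and 10 in all. With distance alone there were 26 and 5322, and with an adjusted p under 0.05 there were 64 in all. Mean contacts per replicate of the LIF promoter rose from 13.5 to 87 with TSS ± 5 kb, which adds the dense neighbouring anchors, and to 36 with the TSS of any transcript, where EPHA2 had 84 in place of 37. At a summed count of at least 2 they were 8.5 at LIF, 26.5 at NOTCH1 and 8 at FOXA1, and up to 1 Mb 23 at FOXA1. TSS ± 5 kb gave 435 genes by side and 18, 23 and 97 in the 3 classes beyond 20 kb. For contacts within the locus, a window of 100 kb brought EPHA2 (ratio 1.23) and NOTCH1 (1.36) past the threshold, with 610 genes higher and 155 lower, and a window of 25 kb gave 0 and 3. Distance alone gave ratios of 8.36, 4.29 and 2.99 at EPHA2, LIF and NOTCH1, all past the threshold, with 5136 genes higher and 1995 lower. Depth from outside the locus gave 1.79, 1.29 and 2.08 at the same genes, with 3855 and 1616 genes. No paired analysis was possible because there was only 1 group. Beyond 20 kb, single promoter loops had at most 4 counts at LIF and 2 at FOXA1.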
